A study of Mus musculus with 15 samples.

Results

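Cholesterol and fatty acid synthesis genes were followed in RNA from sorted mouse T cells. The set was chosen by gene symbol and holds 39 genes, all of them found among the 17594 genes of the deposited table. By role, 7 act from acetoacetyl-CoA to farnesyl diphosphate, 11 act from squalene to cholesterol, 5 regulate the pathway, 6 move, store or export cholesterol, and 10 make or modify fatty acids. A minimum level, a normalized read count of at least 10 in at least 3 libraries, was met by 37 of the 39 and by 11314 genes in all.

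Spleens of mice on a C57BL/6 background were the source of both cell types, regulatory CD4+ T cells (Treg), whose identity rests on the factor Foxp3, and Tconv, the conventional CD4+ T cells. There were 4 Treg KO, 4 Treg WT, 4 Tconv KO and 3 Tconv WT libraries, each from 10 ng of total RNA. Mice in the KO groups carried a conditional Hpgd allele and the Foxp3-Cre-YFP driver, and the WT mice are labelled wild-type. The sources used here give neither the ages of the mice nor whether the WT mice carried the Cre driver. The driver places Cre under the Foxp3 gene, so Tconv KO denotes cells from the same kind of mouse in which the gene of the driver is little expressed. Hpgd encodes the dehydrogenase that begins the breakdown of prostaglandins, lipids made from arachidonic acid.

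Cells build cholesterol from acetyl-CoA through mevalonate, farnesyl diphosphate and squalene, and branches of the same route supply the lipid anchors of small GTPases. The sterol regulatory element binding proteins SREBP1 and SREBP2 (genes Srebf1 and Srebf2) switch on most of these enzymes. They are escorted out of the endoplasmic reticulum by Scap when sterol is low and are held there by Insig1 and Insig2 when it is high. Oxysterols instead activate the liver X receptors, which induce the exporters Abca1 and Abcg1. In T cells this programme is known to be switched on when cells grow and divide after activation.

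Promoter sequences of 6 members are printed first, as the window from 250 bases before to 50 bases after the start site on the strand of the gene (RefSeq, GRCm38.p6). Capitals mark matches, on either strand, to 3 motifs. These are TCACNCCAC, a form of the sterol regulatory element that SREBPs bind, CACGTG, an E-box, and CCAAT, the box of the factor NF-Y, which reads ATTGG where it lies on the opposite strand. Hmgcs1 is shown because its window was the only 1 among the members to hold the sterol regulatory element letters. The other 5 are shown because they differed between groups. Fdps and Stard4 differed too, and their windows were not used here. The windows of Acat2, Acly and Lss, which differed between cell types, were searched and are not shown.
Hmgcs1 (chr13:119690101-119690400, plus strand): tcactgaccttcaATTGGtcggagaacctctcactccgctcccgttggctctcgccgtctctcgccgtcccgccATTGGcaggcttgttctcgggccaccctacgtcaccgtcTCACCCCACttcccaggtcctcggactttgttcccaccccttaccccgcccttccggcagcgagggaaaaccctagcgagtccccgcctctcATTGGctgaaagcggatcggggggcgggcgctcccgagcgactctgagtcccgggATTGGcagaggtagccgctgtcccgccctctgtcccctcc
Tm7sf2 (chr19:6067801-6068100, minus strand): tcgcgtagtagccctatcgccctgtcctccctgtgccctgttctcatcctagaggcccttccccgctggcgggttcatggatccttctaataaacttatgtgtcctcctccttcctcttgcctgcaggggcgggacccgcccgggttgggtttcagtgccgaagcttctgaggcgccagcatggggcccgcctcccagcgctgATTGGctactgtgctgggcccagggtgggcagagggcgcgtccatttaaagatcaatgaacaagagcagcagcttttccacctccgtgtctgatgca
Hsd17b7 (chr1:169969156-169969455, minus strand): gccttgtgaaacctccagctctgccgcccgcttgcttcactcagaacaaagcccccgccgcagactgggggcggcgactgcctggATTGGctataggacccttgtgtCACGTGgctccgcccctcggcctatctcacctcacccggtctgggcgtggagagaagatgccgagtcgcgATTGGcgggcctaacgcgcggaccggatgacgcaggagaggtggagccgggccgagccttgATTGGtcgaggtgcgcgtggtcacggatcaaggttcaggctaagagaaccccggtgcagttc
Ebp (chrX:8193463-8193762, minus strand): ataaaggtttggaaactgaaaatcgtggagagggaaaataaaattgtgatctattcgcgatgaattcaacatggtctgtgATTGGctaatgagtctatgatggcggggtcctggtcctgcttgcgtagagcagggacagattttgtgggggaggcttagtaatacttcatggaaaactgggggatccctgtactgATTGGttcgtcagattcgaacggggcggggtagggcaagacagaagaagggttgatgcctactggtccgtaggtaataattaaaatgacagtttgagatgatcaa
Soat1 (chr1:156474279-156474578, minus strand): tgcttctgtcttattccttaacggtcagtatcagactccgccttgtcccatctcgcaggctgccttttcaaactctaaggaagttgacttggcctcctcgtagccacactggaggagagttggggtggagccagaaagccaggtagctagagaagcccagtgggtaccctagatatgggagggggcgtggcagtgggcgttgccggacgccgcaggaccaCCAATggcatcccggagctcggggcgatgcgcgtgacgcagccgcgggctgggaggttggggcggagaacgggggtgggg
Npc2 (chr12:84773063-84773362, minus strand): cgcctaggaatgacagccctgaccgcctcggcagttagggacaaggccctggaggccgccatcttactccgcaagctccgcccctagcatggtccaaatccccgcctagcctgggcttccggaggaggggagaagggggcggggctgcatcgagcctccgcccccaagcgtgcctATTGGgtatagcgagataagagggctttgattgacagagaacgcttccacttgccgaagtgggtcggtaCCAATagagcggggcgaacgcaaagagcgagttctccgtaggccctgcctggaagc

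In the Hmgcs1 window the sterol regulatory element letters begin at offset -137 from the start site, between CCAAT boxes on either side. A promoter entry was matched for 30 of the 39 members. The TCACNCCAC letters stood in 1 of these 30, against 1.44% of 27025 genes with an entry. CACGTG stood in 7 of 30 (23.3%), against 8.09% of all genes, and the Hsd17b7 match begins at offset -143. CCAAT stood in 24 of 30 (80%), against 41.1% of all genes, including 9 of 9 squalene-to-cholesterol enzymes. A gene was counted where any of its windows held the letters, and 1 pair of matches overlapped, both of them CCAAT boxes in the Fasn window. A match describes letters in a window and is not evidence that a factor binds there.

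Libraries held 2.64 to 11.1 M reads (mega-reads) assigned to genes, with 2.64 to 4.71 M reads in Treg KO, against 6.43 to 10.0 M reads in Treg WT, and 2.95 to 10.3 M reads in Tconv KO, against 6.60 to 11.1 M reads in Tconv WT. Foxp3 had 3314 to 4589.7 normalized read counts in Treg KO and 4006 to 4800.3 in Treg WT, against 18.9 to 69.5 in Tconv KO and 14.4 to 20.6 in Tconv WT, so the cell type labels held in all 15 libraries. Hpgd had 1 read in all, in a Treg WT library, so the knockout could not be checked at this depth. Xist, the RNA of the inactive X chromosome, had 12989 to 19007 normalized read counts in Treg KO and 8644 to 13152 in Tconv KO, and at most 5.52 in any WT library. The Y-linked Ddx3y was listed at 0 in all 8 KO libraries and at 1154 to 1505 in Treg WT and 1305 to 1519.9 in Tconv WT. Sex and genotype therefore cannot be told apart in any comparison of KO with WT. Library Treg KO 3 stood apart by its depth, the lowest of all, and by GC content. For this, each gene's log2 level was taken relative to its own mean over the 15 libraries. The median for genes of highest GC content minus that for genes of lowest GC content was -0.89 in Treg KO 3. It was -0.17 to -0.03 in the other Treg KO libraries. Library Tconv KO 1 stood apart by its sums of several marker lists. Its 4 Treg markers summed to 4062 normalized read counts, against 640.3 to 1778 in the other Tconv KO libraries, and its 6 CD8 T and NK cell markers summed to 858, against 289.6 to 536. Foxp3, which is among the Treg markers, was at most 69.5 in any Tconv KO library. Markers of dividing cells summed to 1889.6 in Tconv KO 1, against 1151 to 1189.6 in the others. Whether this library held more cells of other types was not tested.

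All levels are normalized read counts, which are read counts divided by a scaling factor of the library. To compare levels between genes they were divided by the length in kilobases of the principal transcript and averaged over the 15 libraries. On that per-length scale Npc2, which binds cholesterol inside the lysosome, averaged 509. Then came Elovl5, which lengthens polyunsaturated fatty acids, at 474 and Acly, which makes cytosolic acetyl-CoA from citrate, at 399. Srebf2 followed at 359.7 per kilobase and stood above Srebf1 at 160.0. The order of the first 3 differed by group: Npc2 led in Tconv, at 616 per kilobase in Tconv KO and 677 in Tconv WT. Elovl5 led in Treg, at 525 in Treg KO and 464 in Treg WT, where Npc2 had 354 in Treg KO and 431 in Treg WT. Among the 18 enzymes from acetoacetyl-CoA to cholesterol, Ebp was highest at 149 per kilobase in the mean over all libraries and Hsd17b7 lowest at 16.3, with Hmgcs1, which makes the precursor of mevalonate, at 84.5. In Treg KO alone Tm7sf2 was lowest, at 15.7 per kilobase, against 20.1 for Hsd17b7. The stearoyl-CoA desaturases differed from each other: Scd2 had 152 per kilobase, whereas Scd1 had 34 reads in all 15 libraries together and did not reach the minimum. The pair are close copies, and the sources used here do not say how reads shared between them were counted. Of the fatty acid desaturases, Fads1 had 38.9 per kilobase and Fads2 had 5 reads in all, also below the minimum.

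The comparison of Treg KO with Treg WT asks whether these genes differ between Treg of the KO mice and Treg of the WT mice. Genotype and sex differ together in it, and loss of Hpgd could not be checked. Of 37 members tested 6 differed, with 4 higher and 2 lower in Treg KO, against 21.5% of all genes tested (limma, adjusted p under 0.05). The members' share was therefore near the background, and their median log2 fold change was -0.03, against 0.00 over all genes. Of the 37 members, 5 lay higher and 4 lower in Treg KO without overlap of the groups. Without overlap were 26.2% of all genes tested, so lack of overlap was not particular to the members. In the sterol branch Hsd17b7 and Ebp were higher and Tm7sf2 was lower in Treg KO, in the mevalonate branch Fdps was lower, and of the genes that handle finished cholesterol Stard4 and Soat1 were higher. These are bulk samples, so fewer cells of a type and less RNA per cell cannot be told apart. Fold changes are on the log2(value + 1) scale and are given ± SE.

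Fdps, farnesyl diphosphate synthase, makes the branch point intermediate from which sterols and isoprenoid anchors both derive (ENSMUSG00000059743.12, chromosome 3, 89093588 to 89101959 on GRCm38). It had 43.5, 31.5, 53.9 and 54.8 normalized read counts in Treg KO, against 100.1, 80.7, 78.5 and 73.6 in Treg WT. Every Treg KO library lay below every Treg WT library. The mean was 45.9 ± 10.9 in Treg KO and 83.2 ± 11.6 in Treg WT (SD, n = 4 each), a log2 fold change of -0.87 ± 0.19 (adjusted p = 0.0063). It passed under all 20 alternative settings in which it was tested, with log2 fold changes of -1.04 to -0.70. None of the other 6 mevalonate genes passed. Their log2 fold changes ran from -0.59 for Mvd, which makes isopentenyl diphosphate, to 0.13 for Idi1, which isomerizes it.

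Tm7sf2 is a sterol reductase that acts after lanosterol is formed (ENSMUSG00000024799.16, chromosome 19, 6062821 to 6068373). It had 13.1, 29.1, 23.7 and 26.7 normalized read counts in Treg KO, against 43.9, 39.3, 44.2 and 50.5 in Treg WT. The groups did not overlap, and the log2 fold change was -0.97 ± 0.26 (adjusted p = 0.0169). Library Treg KO 1 was lowest at 9 reads. Hsd17b7 encodes the reductase of sterol ketones that is also known to convert estrone (ENSMUSG00000026675.12, chromosome 1, 169949535 to 169969241). It had 116, 97.0, 75.4 and 82.9 normalized read counts in Treg KO, against 65.1, 43.5, 44.8 and 67.4 in Treg WT. Again the groups did not overlap, with a log2 fold change of 0.75 ± 0.19 (adjusted p = 0.0121), the highest among the members.

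Ebp, the sterol isomerase that binds emopamil (ENSMUSG00000031168.14, chromosome X, 8185329 to 8193512), had 319, 328, 329.6 and 309 normalized read counts in Treg KO, against 283, 226, 250.1 and 215 in Treg WT. Treg KO libraries were all above Treg WT libraries and differed little among themselves, with a mean of 321 ± 9.42 in Treg KO and 243 ± 30.2 in Treg WT (SD, n = 4 each). The log2 fold change was 0.41 ± 0.09 (adjusted p = 0.00578), and Ebp passed under all 20 alternative settings, at 0.35 to 0.48. Ebp lies on the X chromosome, and the KO libraries carried female and the WT libraries male transcripts. Nsdhl, the other X-linked member, which removes methyl groups from the sterol ring, had a log2 fold change of 0.27 ± 0.19 and overlapping groups (adjusted p = 0.329). The remaining 7 sterol enzymes did not pass either. Among these Fdft1, squalene synthase, had 95.7, 137, 129 and 119 normalized read counts in Treg KO and 157, 152, 141 and 162 in Treg WT, which did not overlap (log2 fold change -0.36 ± 0.14, adjusted p = 0.0804). Sqle, squalene epoxidase, a control point of the route, had a log2 fold change of -0.03 ± 0.25 with a 95% interval of -0.56 to 0.50.

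Stard4 is a soluble carrier that moves cholesterol between membranes (ENSMUSG00000024378.9). It had 247, 224, 241 and 215 normalized read counts in Treg KO, against 178, 177, 160.0 and 141 in Treg WT, without overlap. The log2 fold change was 0.50 ± 0.11 (adjusted p = 0.00788). Soat1 esterifies cholesterol for storage (ENSMUSG00000026600.12, chromosome 1, 156424525 to 156474331). It had 476, 419, 444 and 431 normalized read counts in Treg KO, against 363, 358, 369 and 298 in Treg WT, again without overlap, and a log2 fold change of 0.35 ± 0.09 (adjusted p = 0.0177). The exporters did not pass: Abca1 had a log2 fold change of -0.37 ± 0.22 (adjusted p = 0.238) and Abcg1 of -0.17 ± 0.08 (adjusted p = 0.137).

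**Figure D1:**
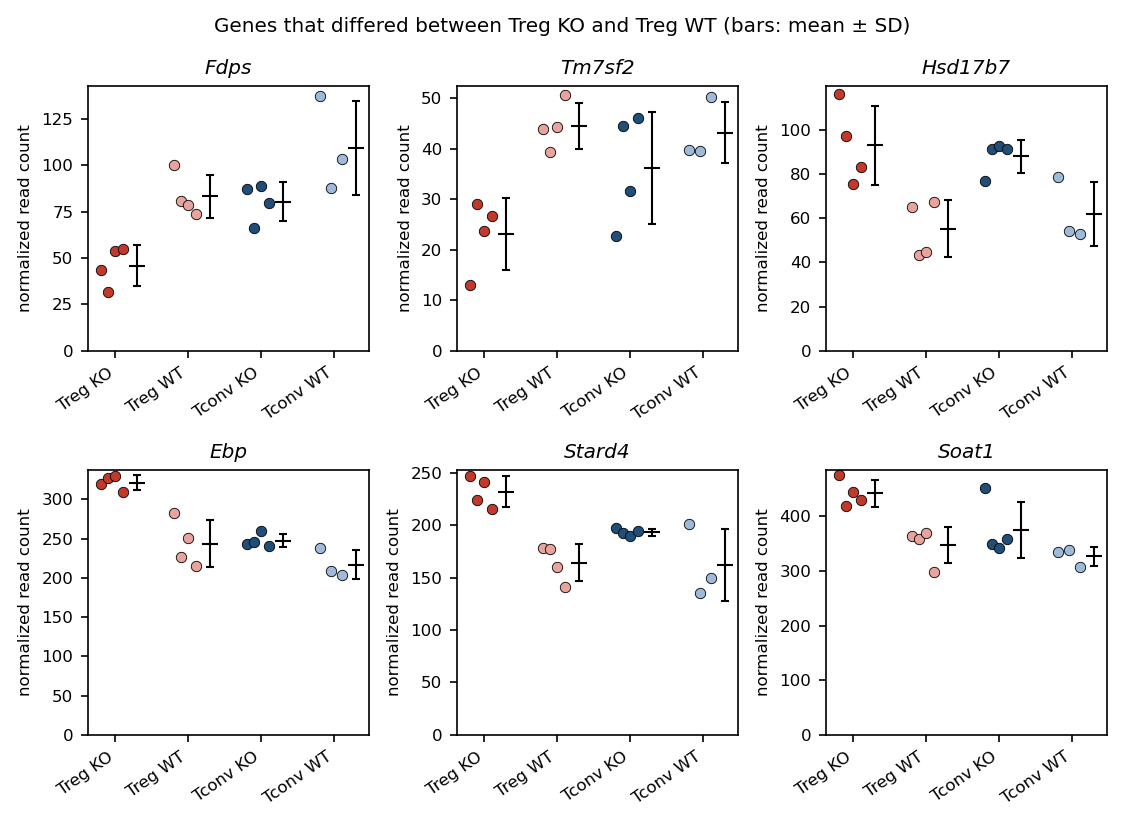
Normalized read counts per library (vertical axes) of the 6 members that differed between Treg KO and Treg WT, by group (horizontal axes), with the mean and SD beside the points. In each panel the 4 Treg KO points lie wholly above or wholly below the 4 Treg WT points, with Fdps at 31.5 to 54.8 in Treg KO and 73.6 to 100.1 in Treg WT. The same holds for 26.2% of all genes tested.

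The regulators gave 0 calls of 5 with limma, against 21.5% of all genes tested. An unadjusted p under 0.05 was found for 3 of 5, against 4108 of all 11314 genes tested. By edgeR 0 were called, against 21.6% of all genes, and by DESeq2 1, Scap, against 24.6%. Scap had 666, 681, 384 and 689 normalized read counts in Treg KO, against 841, 795, 804 and 704 in Treg WT, without overlap (log2 fold change -0.41 ± 0.15, adjusted p = 0.0551). The value far below the rest was that of Treg KO 3. The same library was lowest for Srebf1, with 595, 685, 368 and 659 normalized read counts in Treg KO and 761, 683, 758 and 757 in Treg WT (adjusted p = 0.0756). For Srebf2 it was lowest as well, with 1412, 1822, 1034 and 1949.8 in Treg KO and 2145, 1823, 1912 and 1914 in Treg WT (adjusted p = 0.144). These 3 transcripts have GC contents of 59.1%, 58.4% and 57.9%. Of the retention factors, Insig1 had a log2 fold change of 0.20 ± 0.13 (adjusted p = 0.281) and Insig2 of 0.29 ± 0.13 (adjusted p = 0.122).

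The fatty acid genes gave 0 calls of 8 tested with limma, edgeR and DESeq2, against 21.5%, 21.6% and 24.6% of all genes. An unadjusted p under 0.05 was found for 0 of 8, against 4108 of all 11314 genes tested. Fasn, fatty acid synthase, had 1500.0, 1625, 1073 and 1531 normalized read counts in Treg KO and 1799.6, 1528, 1541 and 1569 in Treg WT, a log2 fold change of -0.18 ± 0.10. Acly had a log2 fold change of 0.00 ± 0.07 with a 95% interval of -0.14 to 0.14, and Acaca, which makes malonyl-CoA, had -0.10 ± 0.15 with an interval of -0.42 to 0.22. Of all 37 members, 32 had a 95% interval within 1 of 0 on the log2 scale.

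Several measured features moved with these calls. Across 11223 genes the fold change between Treg KO and Treg WT fell with transcript GC content (Pearson's r = -0.37, across genes, which are not independent replicates), with a median log2 fold change of 0.20 in the fifth of genes lowest in GC and -0.32 in the fifth highest. The members higher in Treg KO had GC contents of 43.9% (Hsd17b7), 43.9% (Stard4), 44.1% (Soat1) and 50.9% (Ebp), and the lower ones 54.5% (Fdps) and 56.4% (Tm7sf2). With that trend removed 2 of the 6 calls were left, Ebp and Fdps, and 12.2% of all genes passed. The log2 fold changes then were 0.54 for Hsd17b7, 0.29 for Stard4, -0.73 for Tm7sf2 and 0.15 for Soat1, in place of 0.75, 0.50, -0.97 and 0.35. These 4 had adjusted p of 0.092 for Hsd17b7, 0.099 for Stard4, 0.092 for Tm7sf2 and 0.28 for Soat1, and ranged over all alternatives up to those same values and down to 0.0020, 0.0018, 0.0062 and 0.0051. Soat1 also failed without Treg WT 4 (adjusted p = 0.060) and with reads thinned to 1 depth (0.068), and Tm7sf2 failed without Treg WT 4 (0.051). All 12 markers of dividing cells passed as higher in Treg KO, against 10.4% of all genes. They summed to 2134 to 2581 normalized read counts in Treg KO and 612 to 1129 in Treg WT, with none at 0. B cell markers (7 genes) summed to 218 to 287 in Treg KO and 153 to 229.6 in Treg WT, and CD8 T and NK cell markers (6 genes) to 72.8 to 131 in Treg KO and 73.8 to 87.8 in Treg WT. Markers of erythroid cells and platelets (5 genes) summed to 4.31 to 12.1 in Treg KO and 20.6 to 27.5 in Treg WT, without overlap. The part of dividing, B, CD8 T, NK or erythroid cells and platelets in these results was not tested.

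In Tconv the comparison of KO with WT asks whether the members differ in cells that express little of the gene of the driver. Of 37 members 0 differed with limma, against 0.681% of all genes tested. An unadjusted p under 0.05 was found for 3 of 37 members, against 1358 of all 11314 genes tested. Both edgeR and DESeq2 also called 0, as did each alternative run. The median log2 fold change of the members was 0.05, against 0.00 over all genes, and 36 of 37 had a 95% interval within 1 of 0 on the log2 scale. Groups did not overlap for 2 members higher in Tconv KO, Ebp and Soat1, and 1 lower, Fasn, against 16.3% of all genes. Their log2 fold changes were 0.19 ± 0.09 for Ebp, 0.19 ± 0.10 for Soat1 and -0.19 ± 0.11 for Fasn (limma, adjusted p of 0.428, 0.474 and 0.511). The members at an unadjusted p under 0.05 were Hsd17b7, Stard4 and Abca1. Hsd17b7 had 76.9, 91.2, 92.7 and 91.1 normalized read counts in Tconv KO, against 78.6, 54.3 and 52.9 in Tconv WT, a log2 fold change of 0.52 ± 0.20 (adjusted p = 0.315). Stard4 had 198, 193, 189 and 194 in Tconv KO, against 201, 135 and 149.8 in Tconv WT (0.28 ± 0.12, adjusted p = 0.386). For both genes 1 Tconv WT library was higher than the lowest Tconv KO library. Abca1, which exports cholesterol to apolipoproteins, had 96.1, 183, 231 and 241 in Tconv KO, against 231, 293 and 252 in Tconv WT (-0.54 ± 0.24, adjusted p = 0.38). Its lowest value was in Tconv KO 1. Markers of dividing cells summed to 1151 to 1889.6 in Tconv KO and 576 to 666 in Tconv WT. Of these 12 markers 5 passed, all higher in Tconv KO, against 0.292% of all genes that passed as higher.

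The difference between the genotype effects in Treg and in Tconv was tested as an interaction. It was past the threshold for 0 of 37 members with limma, against 0.150% of all genes. An unadjusted p under 0.05 was found for 0 members, against 963 of all 11314 genes tested. Both edgeR and DESeq2 called 0 members, against 0.150% and 0.837% of all genes. For the 6 members that differed in Treg, the Tconv log2 fold changes were -0.42 for Fdps, -0.29 for Tm7sf2, 0.52 for Hsd17b7, 0.19 for Ebp, 0.28 for Stard4 and 0.19 for Soat1. The differences, Treg effect minus Tconv effect, were -0.44 ± 0.28 for Fdps (95% interval -1.04 to 0.15) and -0.67 ± 0.38 for Tm7sf2 (-1.48 to 0.13). They were 0.23 ± 0.27 for Hsd17b7, 0.21 ± 0.13 for Ebp, 0.22 ± 0.17 for Stard4 and 0.16 ± 0.14 for Soat1. A difference of effect between the cell types was thus not detectable for any of these genes.

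**Figure D2:**
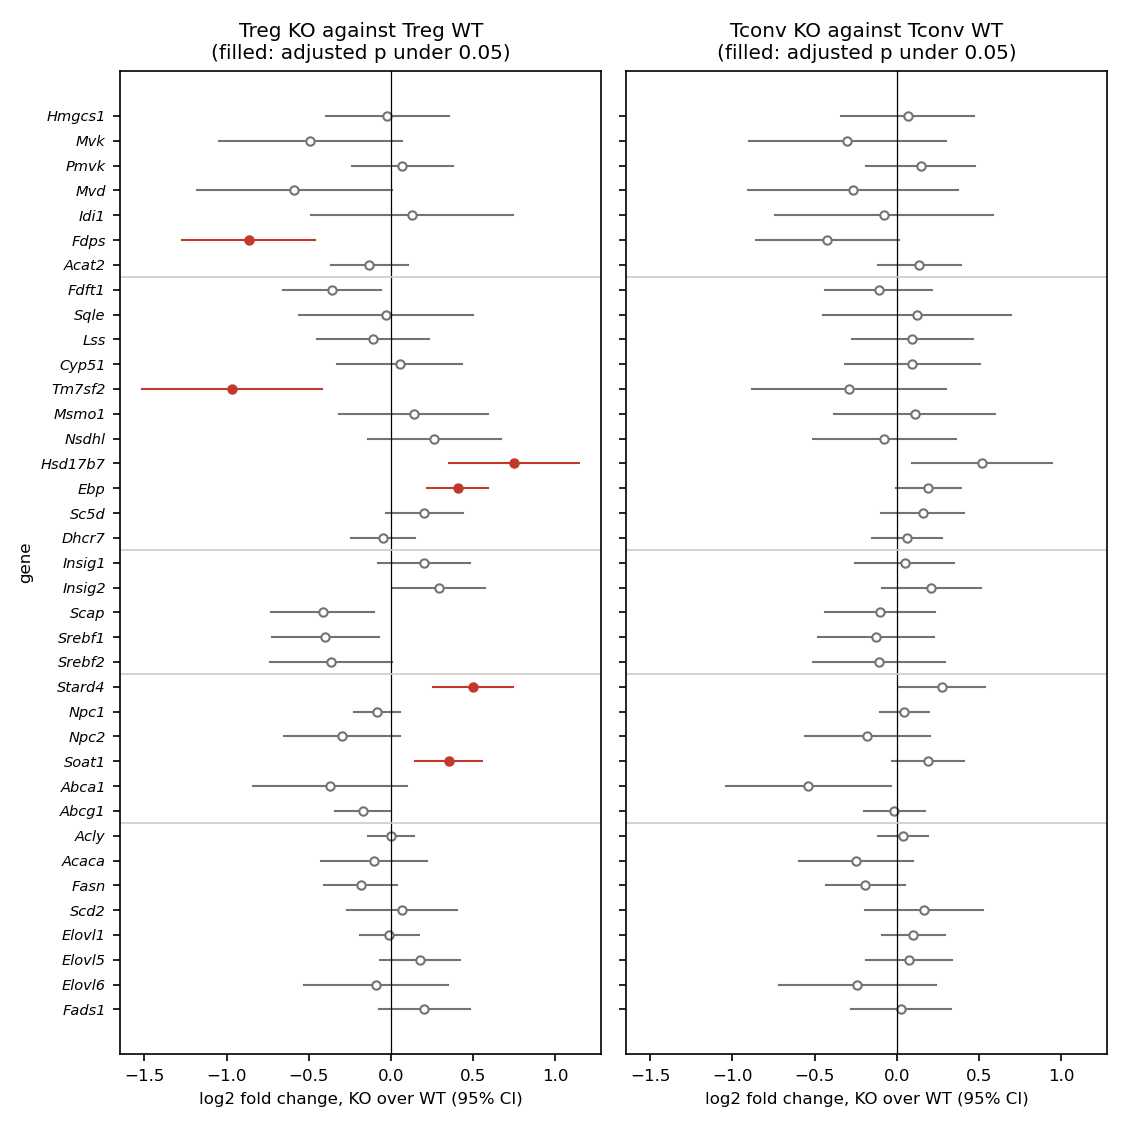
Log2 fold change of each of the 37 tested members with its 95% confidence interval (horizontal axes), in Treg KO over Treg WT (left) and Tconv KO over Tconv WT (right), with genes in rows by role. Filled red points passed at an adjusted p under 0.05; there are 6 on the left and 0 on the right.

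Between cell types, Treg KO against Tconv KO gave 7 members of 37, with 1 higher and 6 lower in Treg KO, against 31.4% of all genes tested. The median log2 fold change of the members was -0.08, against -0.01 over all genes. Groups did not overlap for 2 members higher and 3 lower in Treg KO, against 24.1% of all genes. Of the mevalonate genes Fdps, Acat2 and Hmgcs1 were lower, of the sterol enzymes Lss was lower and Ebp higher, and Npc2 and Acly were lower. Acat2, the cytosolic thiolase that joins acetyl-CoA units, had 110.3, 136, 121 and 143 normalized read counts in Treg KO, against 175, 191, 183 and 216 in Tconv KO, without overlap (-0.59 ± 0.11, adjusted p = 0.000871). Fdps had the values given above in Treg KO, against 87.4, 66.1, 88.7 and 79.5 in Tconv KO, also without overlap (-0.82 ± 0.19, adjusted p = 0.00402). Hmgcs1 had 167, 233, 295 and 296 in Treg KO, against 266, 373, 365 and 407 in Tconv KO, with overlap through Tconv KO 1 (-0.53 ± 0.18, adjusted p = 0.0331).

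Lss, which closes squalene epoxide into lanosterol, had 84.1, 115, 108 and 129.7 normalized read counts in Treg KO, against 122, 165, 179 and 195 in Tconv KO (-0.59 ± 0.16, adjusted p = 0.011). Its groups overlapped. Ebp had 243, 246, 260.2 and 241 in Tconv KO, all below its Treg KO values (0.38 ± 0.09, adjusted p = 0.00408), and both of these groups carried female transcripts. Npc2 (ENSMUSG00000021242.9, chromosome 12, 84754562 to 84773152) had 927, 1288, 1092 and 1364 in Treg KO, against 1273, 2149, 2165 and 2540.5 in Tconv KO (-0.77 ± 0.17, adjusted p = 0.00248). Here Tconv KO 1 lay within the Treg KO range. Acly had 1535, 1676, 1528 and 1788 in Treg KO, against 1771, 1938, 2001 and 1951 in Tconv KO (-0.23 ± 0.07, adjusted p = 0.0141), with slight overlap.

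Library Tconv KO 1, with its high marker sums, bore on this count. Without it 11 members passed, the 7 above with Soat1, Sqle, Srebf2 and Tm7sf2, against 34.4% of all genes. Fitting only these 8 libraries left 4 (Acat2, Ebp, Fdps and Npc2), against 18.05% of all genes. Hmgcs1 also failed without any 1 of 5 libraries, Treg KO 1 and 2 and Tconv KO 2, 3 and 4 (adjusted p of 0.063 to 0.10, and 0.0036 to 0.10 over all alternatives). CD8 T and NK cell markers summed to 72.8 to 131 normalized read counts in Treg KO and 289.6 to 858 in Tconv KO, and myeloid markers (7 genes) to 4.31 to 13.1 in Treg KO and 27.6 to 38.7 in Tconv KO. Markers of erythroid cells and platelets summed to 4.31 to 12.1 in Treg KO and 14.8 to 23.3 in Tconv KO, and B cell markers to 218 to 287 in Treg KO and 64.5 to 329 in Tconv KO. Dividing cell markers summed to 2134 to 2581 in Treg KO and 1151 to 1889.6 in Tconv KO. Of the 12, 3 passed as higher in Treg KO, against 15.8% of all genes. The part of these cells in the differences was not tested.

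The same contrast in WT mice, Treg WT against Tconv WT, shares no library with that in KO mice. Both were fitted in 1 model and share its estimate of the spread. Of 37 members 2 differed, 1 higher and 1 lower in Treg WT, against 18.1% of all genes tested. Groups did not overlap for 3 members higher and 5 lower in Treg WT, against 41.1% of all genes. Npc2 had 1470.0, 1315, 1462 and 1434 normalized read counts in Treg WT, against 2330.1, 2106 and 2259.6 in Tconv WT, without overlap (-0.65 ± 0.18, adjusted p = 0.0178). Abcg1, which passes cholesterol to high-density lipoprotein, had 858, 786, 828.8 and 985 in Treg WT, against 751, 657 and 739 in Tconv WT (0.27 ± 0.09, adjusted p = 0.0413). Its groups did not overlap. With any 1 of these 7 libraries left out 0 or 1 member passed. Npc2 failed without Treg WT 2, Tconv WT 1 or Tconv WT 3 (adjusted p of 0.050 to 0.072, and 1.9e-06 to 0.072 over all alternatives). Abcg1 failed without any of the 7 except Treg WT 2 (0.057 to 0.20, and 0.0099 to 0.20 over all alternatives). The other members that were lower in Treg KO than in Tconv KO had log2 fold changes in WT of -0.32 (Acat2), -0.44 (Hmgcs1), -0.38 (Lss), -0.37 (Fdps) and -0.19 (Acly), with adjusted p between 0.0739 and 0.244. Ebp, the member higher in Treg KO than in Tconv KO, had 0.16 ± 0.09 in WT, with overlapping groups (adjusted p = 0.277). When only these 7 libraries were fitted 6 members passed, Acat2, Acly, Hmgcs1 and Lss among them, against 35.3% of all genes. CD8 T and NK cell markers summed to 73.8 to 87.8 normalized read counts in Treg WT and 293 to 324 in Tconv WT, myeloid markers to 4.65 to 29.3 in Treg WT and 24.1 to 32.1 in Tconv WT, and dividing cell markers to 612 to 1129 in Treg WT and 576 to 666 in Tconv WT. Their part was not tested.

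**Figure D3:**
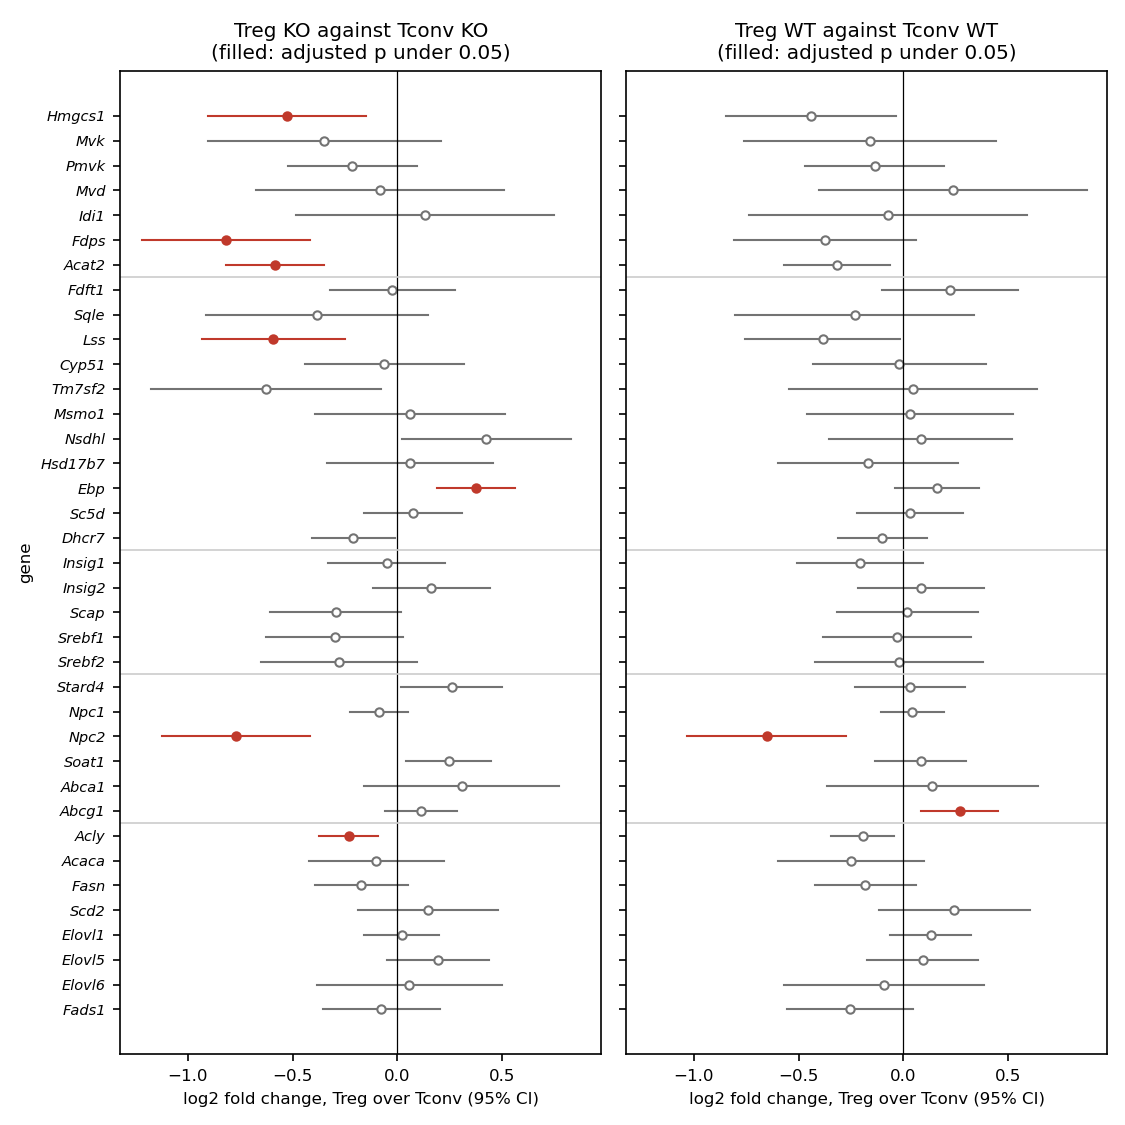
Log2 fold change of each tested member with its 95% confidence interval (horizontal axes), in Treg KO over Tconv KO (left) and Treg WT over Tconv WT (right), with genes in rows by role. Filled red points passed at an adjusted p under 0.05; Npc2 passed in both panels, at -0.77 in KO and -0.65 in WT.

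In each group 1 library was the lowest or the highest for more than 10 of the 18 sterol and mevalonate enzymes. These enzymes summed to 2205, 2766, 2891 and 2881 normalized read counts in Treg KO and 2978, 2353, 2549 and 2621 in Treg WT. In Tconv the sums were 2321, 2964, 3148 and 3302 in KO and 3165, 2611 and 2613 in WT. The KO and WT ranges overlapped in both cell types. Treg KO 1 was the lowest of its group for 12 of 18 enzymes, against 23.1% of all genes, and Tconv KO 1 for 15 of 18, against 31.3% of all genes. Treg WT 1 was the highest of its group for 11 of 18, against 22.0% of all genes, and Tconv WT 1 for 15 of 18, against 33.1%. The same libraries stood out over all 37 members, Treg KO 1 as the lowest for 18, Tconv KO 1 as the lowest for 25, Treg WT 1 as the highest for 22 and Tconv WT 1 as the highest for 28. Of the 8 fatty acid members, Tconv WT 1 was the highest for 6. The labels number the first pair 574 and 575 and the second 484 and 483, and they do not say whether adjacent numbers share an animal. The regulators summed to 3038, 3554, 2226 and 3716 in Treg KO, lowest in Treg KO 3 and not in Treg KO 1. The median coefficient of variation of the 37 members was 17.4% in Treg KO and 10.6% in Treg WT, and 15.9% in Tconv KO and 10.5% in Tconv WT. The transport members ran the other way in Treg, with a median of 5.93% in Treg KO and 9.73% in Treg WT. Mean depth was 3.89 M reads in Treg KO and 8.35 M reads in Treg WT, and 5.40 M reads in Tconv KO and 8.77 M reads in Tconv WT.

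**Figure D4:**
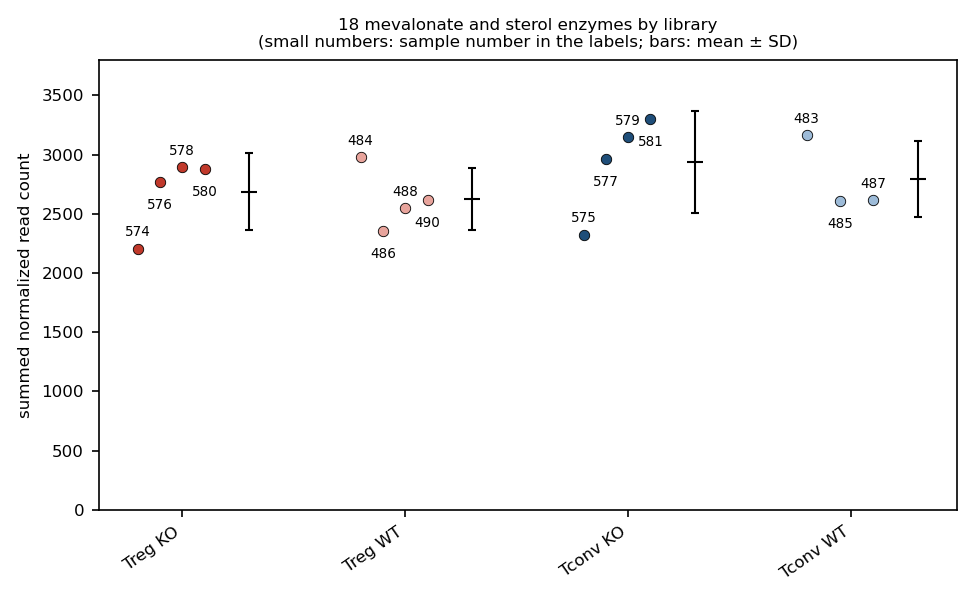
Summed normalized read count of the 18 mevalonate and sterol enzymes in each library (vertical axis), by group, with the labels' sample number beside each point and the group mean and SD to its right. The lowest KO sums are those of samples 574 and 575, at 2205 and 2321, and the highest WT sums those of 484 and 483, at 2978 and 3165.

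**Figure D5:**
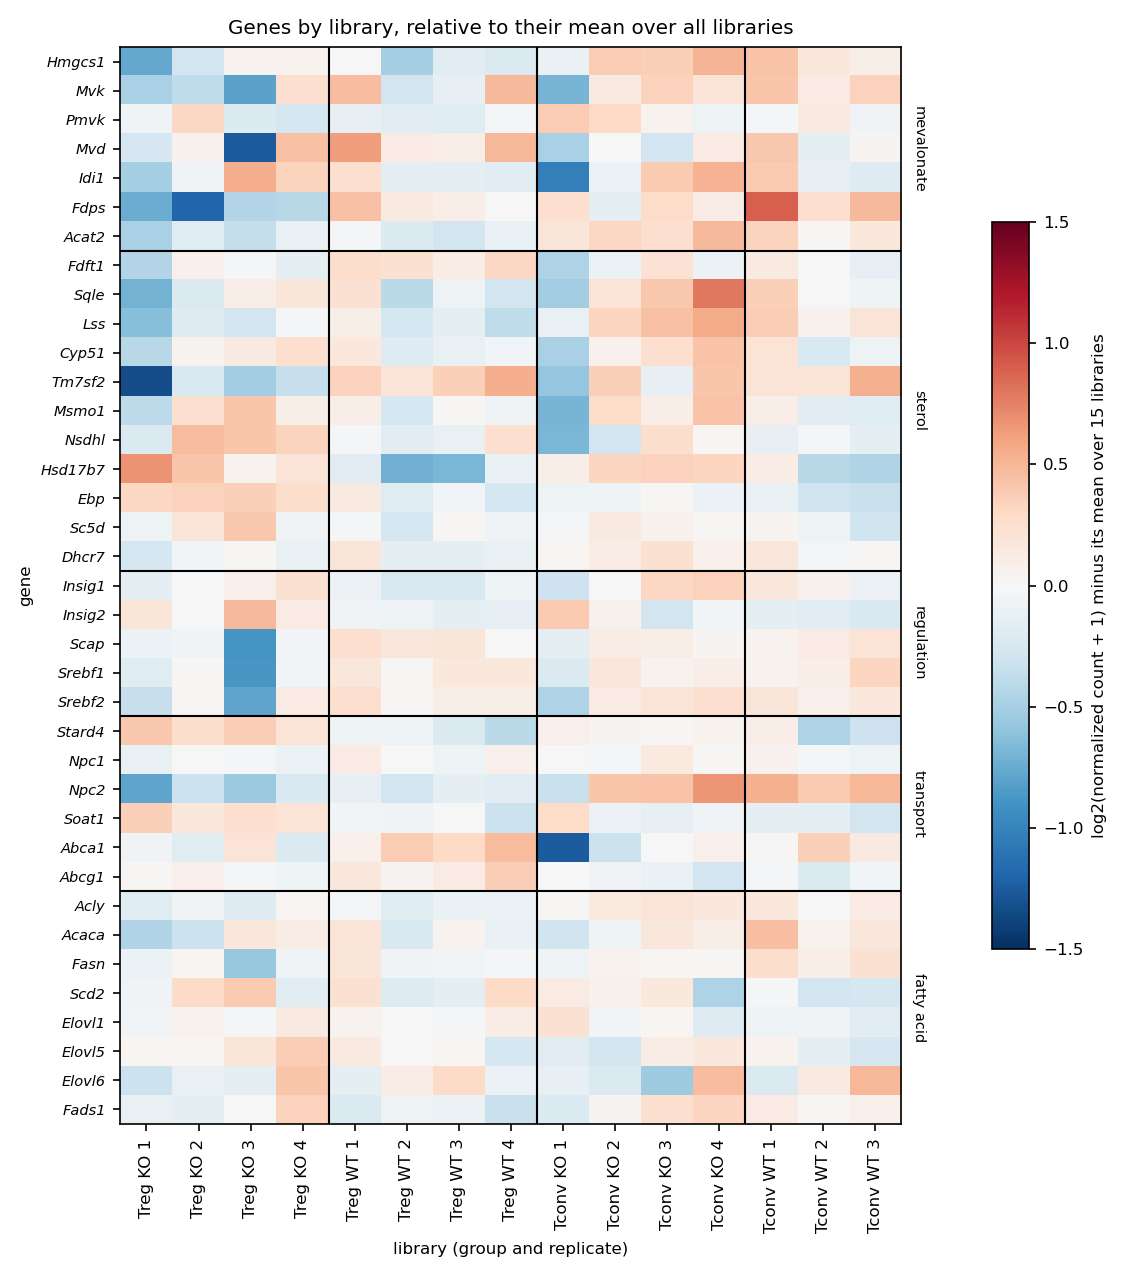
Level of each tested member (rows, by role) in each of the 15 libraries (columns), as log2(normalized read count + 1) minus the member's mean over all libraries, in red where above and blue where below. Blue runs through most mevalonate and sterol rows in Treg KO 1 and Tconv KO 1, and Mvd, Scap, Srebf1 and Srebf2 are blue in Treg KO 3.

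Neighbouring genes of the pathway were counted in 4 lists. In Treg KO against Treg WT, 21.5% of all genes passed, and the isoprenoid branch had 2 higher and 2 lower of 12. Rabggta, a subunit of the transferase that puts lipid anchors on Rab proteins, was lower (209 to 296 normalized read counts in Treg KO, 335 to 386 in Treg WT, log2 fold change -0.54 ± 0.12), as was Fntb, the farnesyltransferase subunit that uses the product of Fdps (63.8 to 94.6 in Treg KO, 109.7 to 145 in Treg WT, -0.67 ± 0.23). Higher were Rabggtb, the other subunit (0.33 ± 0.10), and Chm, the escort protein that presents Rab proteins to it (0.33 ± 0.11). Of 15 genes of SREBP processing and sterol-regulated degradation 1 was higher, the ubiquitin ligase Rnf139 (0.31 ± 0.08), and 2 were lower, among them Vcp, which extracts proteins from the membrane for degradation (-0.36 ± 0.09).

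Of 18 genes tested in fatty acid supply, activation and elongation, 2 were higher and 3 lower in Treg KO. Acsl5, which activates fatty acids with CoA, had 912 to 1179 normalized read counts in Treg KO, against 725 to 813 in Treg WT (0.39 ± 0.09). The elongation enzyme Tecr (-0.40 ± 0.10), the mitochondrial reductase Mecr (-0.45 ± 0.13) and the phosphatidate phosphatase Lpin1 (-0.53 ± 0.16) were lower. Of 17 tested uptake, oxysterol and carrier genes 3 were lower, Osbpl7 (-0.57 ± 0.13), the transporter Abca7 (-0.55 ± 0.14) and the late endosomal carrier Stard3 (-0.32 ± 0.10), and 0 higher. In Tconv KO against Tconv WT all 4 lists had 0 calls with limma and with edgeR, against 0.681% and 0.822% of all genes. DESeq2 called 1 higher gene of SREBP processing and 1 lower gene of fatty acid supply, against 2.09% of all genes. The genes at an unadjusted p under 0.05 numbered 2 of 12 in the isoprenoid branch and 3 of 15 in SREBP processing. They numbered 2 of 18 in fatty acid supply and 2 of 17 in the uptake and carrier list, against 1358 of all 11314 genes tested.

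Elovl7, an elongase of saturated chains, reached the minimum level through the Tconv libraries alone, so its levels are given without a test. It had 2.9, 0, 0 and 1.34 normalized read counts in Treg KO, against 15.7, 29.6, 19.7 and 23.9 in Tconv KO, and 0.685, 0.69, 2.33 and 0.887 in Treg WT, against 22.6, 21.1 and 15.8 in Tconv WT. Lpcat3, which places polyunsaturated chains in phospholipids and is a known liver X receptor target, was lower in Treg, with a log2 fold change of -0.65 ± 0.11 in KO and -0.69 ± 0.12 in WT. Mylip, the ligase that degrades lipoprotein receptors, had 279 to 337 in Treg KO against 425 to 498 in Tconv KO (-0.62 ± 0.09), and 270.4 to 330.4 in Treg WT against 445 to 500.1 in Tconv WT (-0.63 ± 0.09). Osbpl3, an oxysterol-binding protein homologue, was higher in Treg, at 1.16 ± 0.29 in KO and 1.54 ± 0.32 in WT, and the transporter Abca2 at 0.34 ± 0.11 in KO and 0.47 ± 0.11 in WT. Treg KO against Tconv KO gave 2 calls of 12 in the isoprenoid branch and 3 of 15 in SREBP processing. The uptake and carrier list gave 5 of 17, and 31.4% of all genes passed. Treg WT against Tconv WT gave 2, 1 and 4 calls in those lists, in that order, against 18.1% of all genes. Calls in the fatty acid supply list are not counted here, because Elovl7 belongs to it.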

How the data were processed

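RNA came from cells lysed in Qiazol, and an Illumina TruSeq RNA kit was used, per the labels' protocols. Per the submitters' processing notes TopHat and build mm10 were used. The sources used here do not give its version, the read counting, its use of strand or the annotation. Values in the deposited table are a normalized signal, gene counts divided by the authors by 1 factor per library. Whole reads were recovered for 100% of values (tolerance 0.001). The file name holds the word DESeq. All 15 columns were used.

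Values were analysed as log2(value + 1) for genes with at least 10 in at least 3 libraries, in limma 3.58.1 (R 4.3.3), with 4 group means, a trended moderated spread and two-sided tests, Benjamini-Hochberg adjusted over 11314 genes at 0.05. Such fold changes understate changes of low genes. On the recovered reads, edgeR 4.0.16 and DESeq2 1.42.0 were alternatives, beside 8 others and 15 fits without 1 library. For the GC alternative a spline with 5 degrees of freedom was removed.

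Replicates were numbered in record order. The labels do not tie samples to animals or cultures, so p-values measure only the spread between these samples. Members and lists were chosen with earlier results of these data known. Members that passed are given by library, others by range or fold change, and of each list up to 4 genes with the smallest p among those that passed. For 1 gene of a list the result is not reported here. Positions, lengths and GC came from GENCODE vM21 (GRCm38), with 17348 of 17594 symbols matched. The limma procedure was tested on simulated data. Figures used matplotlib 3.10.9 in Python 3.11.15.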

Additional observations from a re-analysis of the deposited data

Results flagged for a closer look

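Of 111 combinations of a member and a group of 4 libraries, 8 held 1 library farther from the rest than Dixon's test allows at the 95% level, and chance gives about 1 in 20. In Treg KO this was Scap in Treg KO 3, at 384 normalized read counts, against 666 to 689 in the other 3. In Treg WT, library 1 was high for Idi1 (188, against 140.1 to 144), for Dhcr7, the last reductase of the route (275, against 221 to 224), and for Fasn (1799.6, against 1528 to 1569). Treg WT 2 was low for Srebf1 (683, against 757 to 761) and Treg WT 4 was low for Soat1 (298, against 358 to 369). In Tconv KO, library 1 was low for Hsd17b7 (76.9, against 91.1 to 92.7) and high for Soat1 (451, against 341 to 358).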

How the results depend on the processing

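In Treg KO against Treg WT, 2 members passed with the GC trend removed, in place of 6, and 4 to 9 without 1 library. In Treg KO against Tconv KO, 4 passed when only the groups compared were fitted, in place of 7, 6 to 11 without 1 library, 11 without Treg KO 3 and Tconv KO 1, and 12 with adjacent label numbers as a block. In Treg WT against Tconv WT, 1 passed without a filter, in place of 2, 6 with only the groups compared, 5 with the GC trend removed, 4 with the block, and 0 to 1 without 1 library. The cause was not tested. The block and the fit without those 2 libraries were chosen after seeing the data. The labels give no shared replicate numbers, and the consensus correlation of 7 adjacent pairs was 0.25. The counts for Tconv KO against WT and for the interaction were 0 in all settings run. The interaction spans all groups, so it had no fit of only the groups compared. Of 297 recomputed values of the 15 calls named, 272 passed again, 25 did not and 0 changed direction. Tm7sf2 was not tested at a mean of at least 50. Depth limits the low members: Tm7sf2 had as few as 9 reads in a library. The share of all genes that passed moved with these settings. In Treg KO against Treg WT it was 21.5%, 12.2% with the GC trend removed and 12.3% to 24.2% without 1 library. In Treg KO against Tconv KO it was 31.4%, 18.05% with only the groups compared, 25.7% to 34.4% without 1 library, 35.9% without the 2 libraries and 40.3% with the block. In Treg WT against Tconv WT it was 18.1%, 11.999% without a filter, 35.3% with only the groups compared, 24.6% with the GC trend removed, 23.6% with the block and 12.4% to 15.1% without 1 library. Over all genes, edgeR on the recovered reads called 2444 in Treg KO against Treg WT (limma 2431), 93 in Tconv KO against Tconv WT, 2326 in Treg WT against Tconv WT, 3462 in Treg KO against Tconv KO and 17 in the interaction. DESeq2 called 236 in Tconv KO against Tconv WT (limma 77) and 91 in the interaction (limma 17).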
